A study of Mus musculus with 12 samples.

Results

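The genes described here are 40 genes of DNA break repair by homologous recombination, of the Fanconi anaemia pathway and of the DNA damage checkpoint. They were taken as a list of symbols, chosen with earlier results of these data known, and matched to the gene identifiers of the count tables. The matching used no measured value. All 40 had a row in both deposited tables, which together hold 17335 genes, and all 40 passed the filter on low counts in both cell lines. The lowest count of any member in any library was 86, that of Eme1 in tumour cells.

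Homologous recombination repairs a broken chromosome, or restarts a stalled replication fork, by copying the intact sister chromatid. The broken ends are first cut back to single strands, these invade the intact copy with the help of the Brca proteins, and crossed strands are finally resolved by helicases and nucleases. The Fanconi anaemia proteins unhook crosslinks between the strands and hand them over to recombination, while the kinases Atr and Atm signal to Chek1, Chek2 and Wee1, which hold the cell cycle back. Gemcitabine is a nucleoside analogue that stalls replication forks, and many of these genes are known to be transcribed mostly in cells that are about to replicate or are replicating their DNA.

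RNA was sequenced from 12 cultures of 2 mouse cell lines, PSC4, a line of pancreatic stellate cells (the fibroblast precursors of the pancreas), and KPC4, a line of pancreatic adenocarcinoma cells. PSC4 received starvation medium conditioned for 14 h by KPC4 cells that had been washed after 6 h with 10 µM gemcitabine (Gem-SU) or with vehicle alone (Control-SU), and was harvested after 24 h. KPC4 was kept for 24 h in medium from PSC4 cells that had themselves first spent 6 h in Control-SU or Gem-SU, were washed and then conditioned fresh starvation medium for 18 h (Control-PSC-SU and Gem-PSC-SU). Each of these 4 groups had 3 biological replicates. By the labels no sequenced culture received the drug directly. Each cell type is represented by a single line, so that differences between the lines are also differences between the media they received.

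The libraries held between 26354328 and 38138356 counts. In PSC4 the summed level of 10 stellate markers was 8108 to 8679 CPM (counts scaled to a common library size) with Control-SU and 2441 to 3653 CPM with Gem-SU, and Lum among them was at 0 or had no row. The summed level of 10 markers of tumour epithelium was 3.74 to 6.09 CPM against 10.4 to 14.9 CPM in the same libraries, with Cdh1, Cldn4, Epcam and Esrp1 at 0 or without a row. In KPC4 the epithelial markers summed to 5974 to 7403 CPM with Control-PSC-SU and to 5965 to 7427 CPM with Gem-PSC-SU, with Esrp1 at 0 or without a row, while the stellate list summed to 2417 to 2806 against 1848 to 2208 CPM with Dcn, Des, Lum and Pdgfrb at 0 or without a row. Macrophage and endothelial markers summed to at most 78.2 CPM in any library, the macrophage marker Adgre1 and the endothelial marker Emcn being at 0 or without a row in both lines. What part the shift of the stellate list has in the results below was not tested.

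Some libraries stood apart for these genes. Control-PSC-SU replicate 2 was the highest library of its group for 33 of the 40 members (82.5%, against 39.4% of all genes tested), and Gem-PSC-SU replicate 2 for 28 of them (70.0%, against 39.7%). In PSC4 replicate 1 was the lowest library for 27 of the members with Control-SU (67.5%, against 35.2% of all genes tested) and for 29 with Gem-SU (72.5%, against 38.4%), and Gem-SU replicate 3 was the highest for 27 (67.5%, against 34.4%). Across all genes, KPC4 libraries of the same replicate number deviated together, with correlations of 0.351, 0.436 and 0.211 between the pairs. Each Control-PSC-SU library correlated best with the Gem-PSC-SU library of its own number. The labels do not say what the number stands for. KPC4 results are therefore given from models that leave this number out and from models that use it as a block.

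Promoter sequences were looked at because most members were higher in both lines and because many genes of this pathway are known targets of E2F factors, which drive transcription at the start of DNA replication. RefSeq (GRCm38.p6) gave a window for 31 of the 40 members, each of 300 bases, 250 before and 50 after the start. The shares of all genes given for comparison count every gene with a window, tested here or not. All members, in contrast, passed the filter on low counts. Heptamers like an E2F site (reading TTCCCGC or the variants spelled TTCGCGC, spelled TTGCCGC and spelled TTGGCGC, on either strand, with overlaps allowed and a gene counted once) were found for 16 of the 31 members, or 51.6%, and for 10.9% of 27025 genes with a window. These are the windows of the members with such a heptamer and the smallest p in PSC4, Rad51ap1 at chr6:126939538-126939837 (minus strand), Fancb at chrX:164980342-164980641 (plus strand), Fancm at chr12:65075353-65075652 (plus strand) and Bard1 at chr1:71102923-71103222 (minus strand), shown 5′ to 3′ in the direction of the gene. Capitals mark the E2F-like heptamers (GCGGGAA is TTCCCGC read on the other strand), CCAAT or its reverse ATTGG, and the hexamer TTTGAA.
Rad51ap1: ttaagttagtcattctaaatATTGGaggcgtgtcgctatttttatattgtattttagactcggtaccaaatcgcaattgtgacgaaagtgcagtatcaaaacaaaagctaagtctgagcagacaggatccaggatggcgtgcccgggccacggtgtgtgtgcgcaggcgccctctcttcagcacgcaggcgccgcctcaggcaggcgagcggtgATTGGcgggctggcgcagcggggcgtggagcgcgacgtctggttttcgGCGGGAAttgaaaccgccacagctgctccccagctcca
Fancb: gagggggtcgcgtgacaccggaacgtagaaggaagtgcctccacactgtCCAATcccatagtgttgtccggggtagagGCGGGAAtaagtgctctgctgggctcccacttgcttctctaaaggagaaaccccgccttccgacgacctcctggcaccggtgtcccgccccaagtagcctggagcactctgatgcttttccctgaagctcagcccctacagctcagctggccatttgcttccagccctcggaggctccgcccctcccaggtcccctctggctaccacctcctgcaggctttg
Fancm: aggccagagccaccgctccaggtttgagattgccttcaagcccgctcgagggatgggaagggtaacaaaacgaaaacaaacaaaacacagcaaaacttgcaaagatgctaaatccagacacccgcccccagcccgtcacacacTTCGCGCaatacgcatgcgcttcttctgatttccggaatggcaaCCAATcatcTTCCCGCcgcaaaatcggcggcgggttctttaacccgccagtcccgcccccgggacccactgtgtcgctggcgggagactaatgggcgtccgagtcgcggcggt
Bard1: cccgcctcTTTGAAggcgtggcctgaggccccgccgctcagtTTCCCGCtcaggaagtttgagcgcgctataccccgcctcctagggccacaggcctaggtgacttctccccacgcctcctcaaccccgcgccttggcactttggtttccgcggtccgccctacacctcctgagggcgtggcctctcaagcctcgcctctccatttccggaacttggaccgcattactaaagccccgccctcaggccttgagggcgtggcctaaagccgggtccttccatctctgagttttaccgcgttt

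The share of windows with an E2F-like heptamer was also counted by response. Such a heptamer stood in the window of 8 of the 16 members that rose in PSC4 (50.0%) and of 8 of the 15 that did not (53.3%). For KPC4 with the replicate block the shares were 11 of 17 (64.7%) and 5 of 14 (35.7%). Rad51c, which fell in PSC4, held such heptamers in both of its windows, and Chek1 and Fanci, which did not pass in PSC4, held at least 1 each. CCAAT was found for 17 of the 31 members (54.8%, against 41.1% of all genes) and the hexamers TTTGAA or TTCGAA, which resemble the cell cycle element of late cell cycle genes, for 3 (9.68%, against 21.7%). Such matches describe the letters in these windows and are not binding sites.

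In PSC4 the repair genes were mostly higher after Gem-SU. Of the 40 members, 24 passed the quasi-likelihood test of edgeR at 0.05 after Benjamini-Hochberg correction over all genes, 22 of them higher and 2 lower, where 46.3% of all 13347 genes tested were called (24.3% higher and 22.0% lower). With the replicate number as a block, which did not pair the PSC4 libraries, 27 members were called, 24 higher and 3 lower, where 54.4% of all genes were (27.9% higher and 26.6% lower), the additional ones being Fanci, Rad18 and Trp53bp1. At least 2-fold increases made up 14 of the calls, against 13.5% of all genes. The median log2 fold change was 0.61 over the members and -0.00 over all genes, with a range from -0.79 for Wee1 to 2.01 for Rad51ap1. For 21 members all Gem-SU libraries lay above all Control-SU libraries (29.3% of all genes) and for 4 they lay below (27.1%). Apart from Polh and Atrip, the genes that rose belonged to recombination, end processing, crosslink repair and the junction nucleases, whereas 2 of the 9 checkpoint genes were called, Atrip higher and Wee1 lower.

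In KPC4 the members also lay mostly higher after Gem-PSC-SU, but whether they passed depended on the model. No member, and no gene at all of 13236 tested (0.00%), passed edgeR's test without a block at an adjusted p of 0.05, while 25 members had an unadjusted p under 0.05, all higher, against 17.0% of all genes. With the block 22 members were called, all higher, against 8.85% of all genes called (6.07% higher), and 19 of them were at least 2-fold higher (3.61% of all genes). DESeq2 called 14, all higher, without a block (5.26% of all genes) and 24 with it (14.0%), and an edgeR fit over all 12 libraries without a block called 12 (4.47%). The median log2 fold change was 0.91 in both edgeR fits, with -0.02 over all genes without the block and -0.03 with it, and 19 members had all Gem-PSC-SU libraries above all controls (11.8% of all genes), none below (10.9%).

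The KPC4 calls also depended on which libraries were left out. Without a block, leaving out Control-PSC-SU replicate 2 gave 16 called members and leaving out Gem-PSC-SU replicate 1 gave 8, and each of the other 4 omissions gave 0. With the block, leaving out Control-PSC-SU replicate 3 left 1 call and leaving out Gem-PSC-SU replicate 3 left 2, and the other omissions gave 21 to 24. The share of all genes called with a library left out is not given here. These counts are therefore not shown to be particular to the members. In a blocked fit the remaining library of the omitted number is fitted by its own block term. Each blocked omission therefore takes a whole pair out of the comparison, and omissions of the same number are not separate checks. All 22 members called with the block kept their sign in every such fit, and Rad51ap1 kept its call in every blocked one. Brca1 lost its call only without Control-PSC-SU replicate 3, and the other 20 lost it without that library or Gem-PSC-SU replicate 3, Exo1 and Fanci also without replicate 1 of either group. In PSC4 the 24 calls varied between 19 and 27 over the omissions, 19 of the 24 passed in each fit without a block, and all 24 kept their sign. Brca2, Usp1 and Eme1 lost the call without Control-SU replicate 1 or 3 or Gem-SU replicate 2 or 3, Mus81 without replicate 1 or 2 of either group, and Rad51c without Gem-SU replicate 2 or 3.

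**Figure D1:**
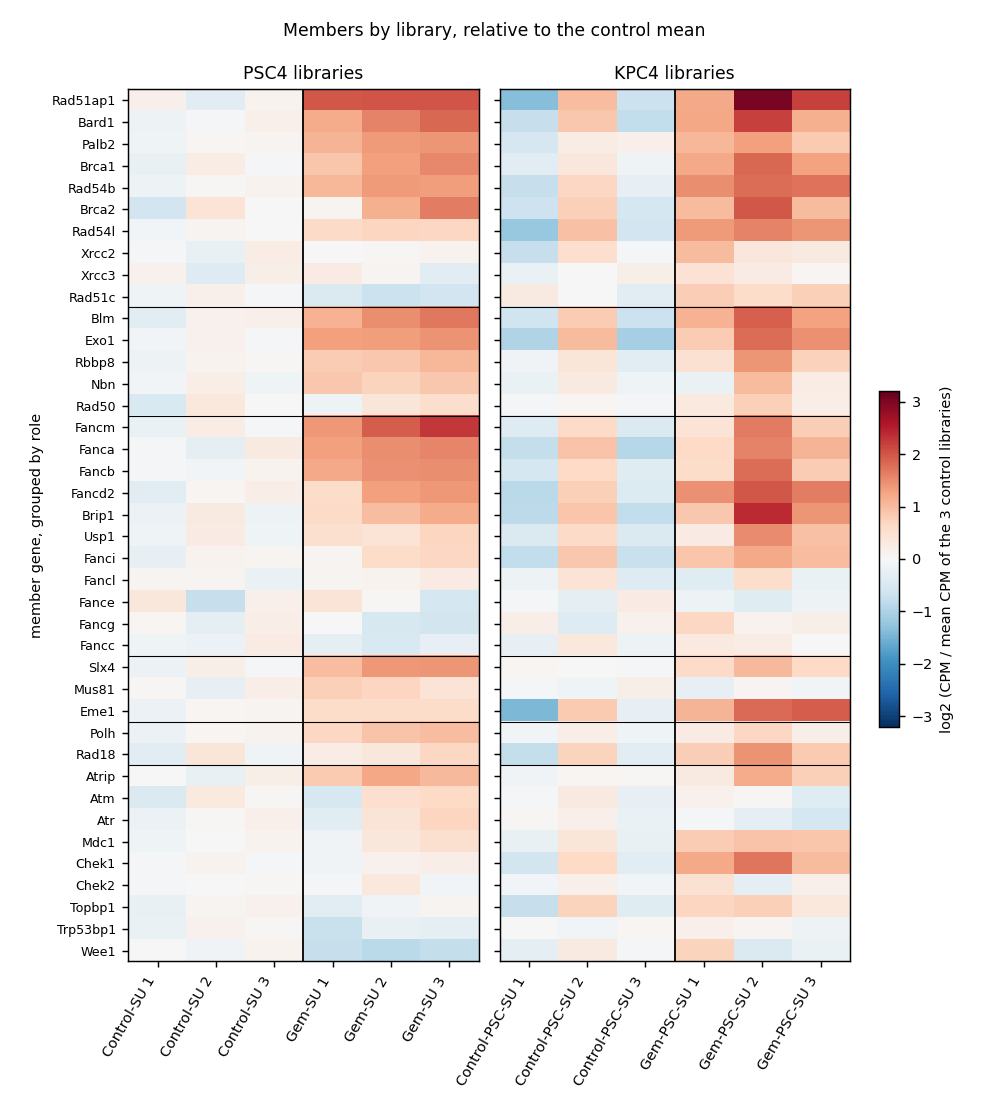
Each row is a member gene, grouped by role, and each column a library. Colour gives the log2 ratio of its CPM to the mean of the 3 control libraries of the same line, red above and blue below. The PSC4 Gem-SU columns are red for most rows. Of the 9 checkpoint genes, 1 lies above the control mean in Gem-SU replicate 1 and 6 in each of replicates 2 and 3. In KPC4 the column of Control-PSC-SU replicate 2 is redder than the other controls, its median over the members being 0.41 against -0.38 and -0.27.

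Of the 10 genes of the strand invasion step, 7 rose and 1 fell in PSC4, with a median log2 fold change of 1.17, and in KPC4 7 rose with the block. The called share was 80.0% in PSC4, beside the 46.3% of all genes, and 70.0% in KPC4 with the block, beside 8.85%. No gene of any role group passed in KPC4 without the block. Rad51ap1 (ENSMUSG00000030346), which stimulates strand invasion, measured 37.6, 26.9 and 36.8 CPM with Control-SU and 135, 137 and 136 CPM with Gem-SU. The Gem-SU libraries lay close together and far above the controls, a 4.02-fold rise (log2 fold change 2.01, SE 0.16, edgeR adjusted p = 8.00e-05). KPC4 cells had 3.69, 19.1 and 5.89 CPM with Control-PSC-SU and 22.1, 78.6 and 43.4 CPM with Gem-PSC-SU. Replicate 2 was the highest library of both groups, yet the groups did not overlap. Its log2 fold change was 2.33 without the block (edgeR adjusted p = 0.157) and 2.49, SE 0.21, with it (adjusted p = 8.94e-04), the largest of all members in each line.

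The Brca1 complex moved in the same direction. Brca1, which directs broken ends to recombination, averaged 125 CPM ± 20.1 with Control-SU and 300.2 CPM ± 65.6 with Gem-SU (SD, n = 3 each; edgeR adjusted p = 0.00153) and went from 70.5 CPM ± 18.3 to 195 CPM ± 47.7 between the KPC4 groups (adjusted p = 0.112 without the block and 9.27e-04 with it). Its partner Bard1 rose 2.94-fold in PSC4 and Palb2, which bridges Brca1 and Brca2, 2.46-fold. With the block the same 3 genes rose 2.78-, 3.31- and 2.15-fold in KPC4. Brca2, which prepares the single strands for invasion, rose 2.13-fold in PSC4 at an edgeR adjusted p of 0.0457, but its groups overlapped, since Gem-SU replicate 1 at 88.0 CPM lay below Control-SU replicate 2 at 111 CPM. Of the translocases that act during strand invasion, Rad54b rose 2.39-fold and Rad54l 1.58-fold in PSC4, and 3.44- and 3.37-fold in KPC4 with the block.

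Rad51c, which acts in strand invasion, was the recombination gene that fell in PSC4. Rad51c (ENSMUSG00000007646) measured 25.8, 31.6 and 27.2 CPM with Control-SU and 20.3, 17.6 and 18.6 CPM with Gem-SU. Every Gem-SU library lay below every control, a 1.50-fold fall (log2 fold change -0.58, SE 0.16, edgeR adjusted p = 0.0195). In KPC4 it measured 4.96, 4.09 and 3.18 CPM with Control-PSC-SU and 6.98, 6.17 and 6.86 CPM with Gem-PSC-SU. There every Gem-PSC-SU library lay above the controls, with a log2 fold change of 0.71 (edgeR adjusted p = 0.245, and 0.0998 with the block). Xrcc2 and Xrcc3, which act at the same step, passed in neither line, with log2 fold changes of 0.05 and 0.03 in PSC4 and 0.59 and 0.28 in KPC4.

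Among the 5 genes that cut back and unwind ends, 4 rose in PSC4 and 3 rose in KPC4 with the block. Over all genes, 24.3% were called higher in PSC4 and 6.07% in KPC4 with the block. None of the 5 passed in KPC4 without the block. Exo1 (ENSMUSG00000039748), a nuclease that extends the resection of broken ends, measured 28.1, 32.5 and 28.7 CPM with Control-SU and 74.1, 75.4 and 80.6 CPM with Gem-SU. All Gem-SU libraries were above all controls, with little spread within either group (2.58-fold, log2 fold change 1.37, SE 0.14, edgeR adjusted p = 1.87e-04). In KPC4 Exo1 measured 5.97, 23.4 and 5.59 CPM with Control-PSC-SU and 20.4, 40.4 and 31.9 CPM with Gem-PSC-SU. Here the control replicate 2 lay above Gem-PSC-SU replicate 1, so that the groups overlapped, and the log2 fold change was 1.41 without the block and 1.67 with it (edgeR adjusted p = 0.247 and 0.0275).

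Blm (ENSMUSG00000030528), the helicase that works with Exo1 and dissolves crossed strands, measured 32.2, 45.7 and 45.9 CPM with Control-SU and 89.1, 116 and 133 CPM with Gem-SU, and its groups did not overlap (2.73-fold, edgeR adjusted p = 8.09e-04). In KPC4 it measured 13.9, 37.9 and 13.5 CPM with Control-PSC-SU and 46.7, 82.3 and 53.5 CPM with Gem-PSC-SU. Replicate 2 was again highest in both groups and no Gem-PSC-SU library reached down to the controls. The log2 fold change was 1.48 without the block (edgeR adjusted p = 0.162) and 1.61 with it (adjusted p = 0.00397). Rbbp8, which starts resection, rose 1.89-fold in PSC4 and 1.89-fold in KPC4 with the block. Within the complex that senses breaks, Nbn rose 1.76-fold in PSC4 (log2 fold change 0.44 in KPC4, not called), whereas its partner Rad50 passed in neither line, with log2 fold changes of 0.29 and 0.45.

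Of the 11 Fanconi genes, 6 rose in PSC4, none fell and 5 did not pass, and in KPC4 7 rose with the block. The called share in PSC4 was 54.5%, beside 46.3% of all genes. In KPC4 with the block it was 63.6%, beside 8.85%, and none of the 11 passed there without the block. The increases in PSC4 were those of Fancm (3.73-fold), which anchors the complex at stalled forks, Fanca (2.76-fold) and Fancb (2.63-fold) of the core complex, Fancd2 (2.20-fold), the protein that the core complex marks with ubiquitin, the helicase Brip1 (1.93-fold) and Usp1 (1.46-fold), which removes that mark. Fancc, Fance, Fancg and Fancl, all of the core complex, passed in neither line, with log2 fold changes from -0.34 to 0.15 in PSC4 and from -0.24 to 0.34 in KPC4. Fanci, the partner of Fancd2, had a log2 fold change of 0.47 in PSC4 (edgeR adjusted p = 0.0758, and 0.0189 with a block) and 1.24 in KPC4 with the block (adjusted p = 0.0447).

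Fancb (ENSMUSG00000047757) measured 18.7, 18.1 and 20.5 CPM with Control-SU and 44.4, 52.7 and 53.8 CPM with Gem-SU. The Gem-SU libraries were all above the narrow range of the controls (log2 fold change 1.40, SE 0.15, edgeR adjusted p = 2.83e-04). KPC4 cells had 5.48, 12.5 and 6.20 CPM with Control-PSC-SU and 12.1, 27.7 and 14.1 CPM with Gem-PSC-SU. The control replicate 2 lay just above Gem-PSC-SU replicate 1, and the log2 fold change of 1.16 had an edgeR adjusted p of 0.222 without the block and 0.00994 with it.

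Brip1 (ENSMUSG00000034329), which unwinds DNA beside Brca1, measured 50.3, 70.7 and 51.6 CPM with Control-SU and 88.4, 114 and 131 CPM with Gem-SU. Its PSC4 groups did not overlap (edgeR adjusted p = 0.00502). KPC4 cells had 7.21, 23.9 and 7.50 CPM with Control-PSC-SU and 23.3, 67.2 and 34.0 CPM with Gem-PSC-SU. Within each replicate number the Gem-PSC-SU library was the higher, but the control replicate 2 slightly exceeded Gem-PSC-SU replicate 1. The log2 fold change was 1.69 without the block and 1.78 with it (edgeR adjusted p = 0.192 and 0.00217).

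Fancc and Fance stand for the core complex members that did not pass. Fancc (ENSMUSG00000021461) measured 10.6, 10.2 and 14.0 CPM with Control-SU and 9.56, 8.26 and 9.66 CPM with Gem-SU, and 5.25, 7.94 and 5.66 CPM with Control-PSC-SU and 7.84, 7.47 and 6.25 CPM with Gem-PSC-SU. Its Gem-SU libraries were all below the controls, at an edgeR adjusted p of 0.208. Fance (ENSMUSG00000007570) measured 21.5, 10.1 and 18.6 CPM with Control-SU and 22.3, 17.2 and 11.4 CPM with Gem-SU, and 13.5, 11.4 and 16.6 CPM with Control-PSC-SU and 12.3, 10.5 and 12.3 CPM with Gem-PSC-SU. Its groups overlapped in both lines (log2 fold change 0.02, SE 0.33, in PSC4 and -0.23, SE 0.18, in KPC4 with the block).

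The 3 genes of the nucleases that cut crossed strands all rose in PSC4, and Slx4 and Eme1 rose in KPC4 with the block. Over all genes, 46.3% were called in PSC4 and 8.85% in KPC4 with the block. Slx4 (ENSMUSG00000039738), the scaffold that holds these nucleases, measured 44.0, 57.8 and 49.3 CPM with Control-SU and 99.96, 132 and 133 CPM with Gem-SU. Gem-SU was higher in every library (2.42-fold, SE of the log2 fold change 0.17, edgeR adjusted p = 6.59e-04). In KPC4 Slx4 measured 40.2, 38.1 and 36.8 CPM with Control-PSC-SU and 58.2, 78.5 and 59.8 CPM with Gem-PSC-SU. Unlike most members it was not raised in the control replicate 2, and the groups did not overlap (log2 fold change 0.77, edgeR adjusted p = 0.124 without the block, and 0.76 and 0.0272 with it).

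Eme1 (ENSMUSG00000039055), the partner subunit of the nuclease Mus81, measured 13.0, 15.4 and 15.7 CPM with Control-SU and 22.2, 21.9 and 22.1 CPM with Gem-SU. The Gem-SU libraries were nearly equal and all above the controls (1.50-fold, edgeR adjusted p = 0.0187). In KPC4 Eme1 measured 2.48, 12.2 and 5.63 CPM with Control-PSC-SU and 14.5, 23.6 and 25.9 CPM with Gem-PSC-SU. The controls ranged widely yet stayed below every Gem-PSC-SU library, with log2 fold changes of 1.66 and 1.88 (edgeR adjusted p = 0.175 without the block and 0.0169 with it). Mus81 (ENSMUSG00000024906) itself measured 12.1, 9.82 and 13.7 CPM with Control-SU and 20.3, 19.0 and 16.2 CPM with Gem-SU, and 15.9, 14.9 and 18.6 CPM with Control-PSC-SU and 13.7, 17.4 and 15.6 CPM with Gem-PSC-SU. It rose 1.56-fold in PSC4 without overlap (edgeR adjusted p = 0.0276), while in KPC4 its groups overlapped (log2 fold change -0.08).

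Polh and Rad18 act when a fork meets a damaged base. Polh (ENSMUSG00000023953), a polymerase that copies past damaged bases, measured 40.7, 48.2 and 50.5 CPM with Control-SU and 74.0, 87.5 and 91.7 CPM with Gem-SU, and 25.4, 31.4 and 24.4 CPM with Control-PSC-SU and 32.2, 43.1 and 30.6 CPM with Gem-PSC-SU. It rose 1.82-fold in PSC4 with separate groups (edgeR adjusted p = 0.00231) and did not pass in KPC4 (log2 fold change 0.38, adjusted p = 0.135 with the block). Rad18 (ENSMUSG00000030254), the ligase that marks stalled forks for bypass, measured 91.6, 155 and 106 CPM with Control-SU and 138, 149.9 and 185 CPM with Gem-SU, and 19.3, 53.1 and 25.1 CPM with Control-PSC-SU and 56.0, 88.4 and 57.7 CPM with Gem-PSC-SU. Its PSC4 groups overlapped (edgeR adjusted p = 0.141, and 0.0389 with a block). In KPC4 they did not overlap and it rose 2.22-fold with the block (adjusted p = 0.0116).

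The 9 checkpoint genes had the lowest medians of the 6 role groups. Their median log2 fold change was 0.08 in PSC4 and 0.16 in KPC4 without the block. In PSC4 2 of them (22.2%) were called, beside 46.3% of all genes. The 33 other checkpoint genes counted below had higher medians, 0.71 in PSC4 and 0.61 in KPC4 without the block. Of these, 69.7% were called in PSC4, so that the low medians hold for the 9 listed genes. Atrip (ENSMUSG00000025646), which brings Atr to single-stranded DNA, measured 20.1, 16.7 and 22.7 CPM with Control-SU and 35.4, 46.7 and 40.8 CPM with Gem-SU, a 2.06-fold rise with separate groups (edgeR adjusted p = 0.00220). In KPC4 it measured 13.7, 15.3 and 15.2 CPM with Control-PSC-SU and 18.1, 33.4 and 25.1 CPM with Gem-PSC-SU. Those groups were also separate but the difference did not pass (edgeR adjusted p = 0.186, and 0.0517 with the block). The kinase Atr (ENSMUSG00000032409) itself measured 24.6, 28.7 and 31.3 CPM with Control-SU and 22.1, 37.3 and 45.1 CPM with Gem-SU, and 43.4, 47.8 and 36.7 CPM with Control-PSC-SU and 41.5, 35.0 and 28.7 CPM with Gem-PSC-SU. It overlapped in both lines, with log2 fold changes of 0.31 and -0.28.

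Wee1 (ENSMUSG00000031016), the kinase that keeps Cdk1 inactive before mitosis, was the other member that fell. It measured 50.6, 46.5 and 54.6 CPM with Control-SU and 30.4, 27.7 and 29.8 CPM with Gem-SU. All Gem-SU libraries lay well below all controls, a 1.73-fold fall (log2 fold change -0.79, SE 0.14, edgeR adjusted p = 0.00249). KPC4 cells had 24.4, 36.4 and 28.5 CPM with Control-PSC-SU and 48.5, 21.7 and 25.7 CPM with Gem-PSC-SU, where the highest library and the lowest both belonged to Gem-PSC-SU (log2 fold change 0.10, SE 0.32).

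Chek1 (ENSMUSG00000032113) is the kinase that Atr activates. In PSC4 it measured 46.2, 51.9 and 46.5 CPM with Control-SU and 44.2, 52.7 and 55.6 CPM with Gem-SU, with overlapping groups (log2 fold change 0.08, SE 0.15, edgeR adjusted p = 0.697). In KPC4 it measured 6.89, 16.1 and 8.31 CPM with Control-PSC-SU and 24.0, 34.1 and 20.9 CPM with Gem-PSC-SU. Every Gem-PSC-SU library exceeded every control there (log2 fold change 1.33, edgeR adjusted p = 0.148 without the block, and 1.40 and 0.00804 with it). Mdc1, a scaffold at marked chromatin, likewise had a log2 fold change of 0.28 in PSC4 (adjusted p = 0.258) and rose 1.87-fold in KPC4 with the block. Atm, Chek2 and Topbp1, which activates Atr, passed in neither line. Trp53bp1, which protects ends from resection, had all Gem-SU libraries below all controls in PSC4, with a log2 fold change of -0.39 (edgeR adjusted p = 0.0934, and 0.0274 with a block), and did not pass in KPC4.

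**Figure D2:**
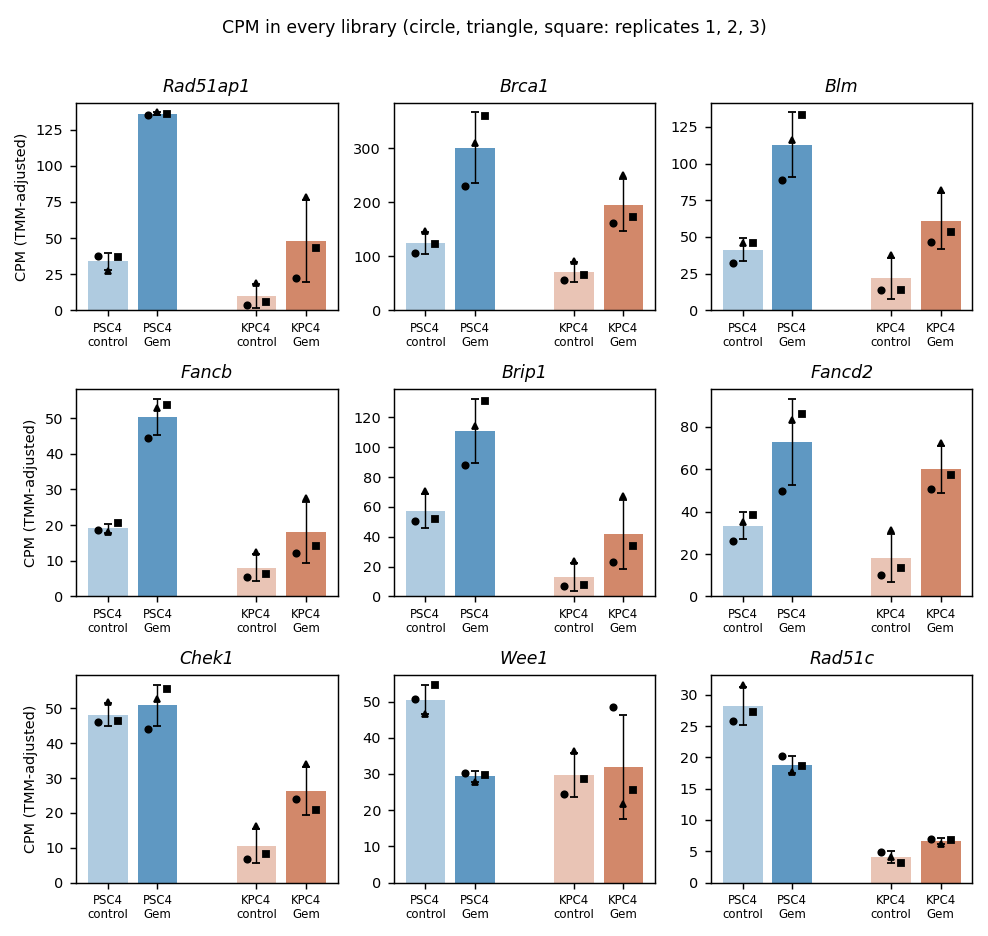
Bars give the mean CPM of 3 libraries for 9 members in each line and group, error bars the SD, and symbols the single libraries (circle, triangle and square for replicates 1, 2 and 3). The triangle of replicate 2 is the highest KPC4 control for every gene drawn except Rad51c, and Rad51c falls in PSC4 while its KPC4 libraries are higher with Gem-PSC-SU.

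Of the 22 members higher in PSC4 and the 22 higher in KPC4 with the block, 18 were shared, or 81.8% of each list. These lists come from fits of different form. With the block in both lines the lists held 24 and 22 members and shared 20, or 83.3% and 90.9% of them, and over all genes 582 were shared, or 15.6% of those higher in PSC4 and 72.5% of those higher in KPC4. The lines share no library. The 18 genes were Bard1, Blm, Brca1, Brca2, Brip1, Eme1, Exo1, Fanca, Fancb, Fancd2, Fancm, Palb2, Rad51ap1, Rad54b, Rad54l, Rbbp8, Slx4 and Usp1. Atrip, Mus81, Nbn and Polh passed in PSC4 and not in KPC4, and Chek1, Fanci, Mdc1 and Rad18 in KPC4 and not in PSC4 without a block. With a block in PSC4 too, Fanci and Rad18 were called in both lines. A further 12 members passed in neither, of which Trp53bp1 passed in PSC4 with a block.

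The difference between the lines was tested as the interaction in 1 fit of all 12 libraries, as the PSC4 change minus the KPC4 change. It was called for 1 of 40 members, Rad51c, against 9.85% of all 13632 genes tested. The Rad51c difference was -1.34 (log2, SE 0.29, edgeR adjusted p = 0.0132). With replicate number within line as a block 6 members were called against 21.9% of all genes. They were Rad51c (-1.35), Chek1 (-1.38), Eme1 (-1.34), Brip1 (-0.88) and Mdc1 (-0.70), for which the PSC4 change was the smaller, and Fancm (0.77), for which it was the larger. For Atrip, Mus81, Nbn and Polh the interaction did not pass in either fit, nor did it for Fanci (edgeR adjusted p = 0.480 without the block and 0.109 with it) and Rad18 (0.394 and 0.0643), so that the changes of these 6 genes are not shown to differ between the lines.

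**Figure D3:**
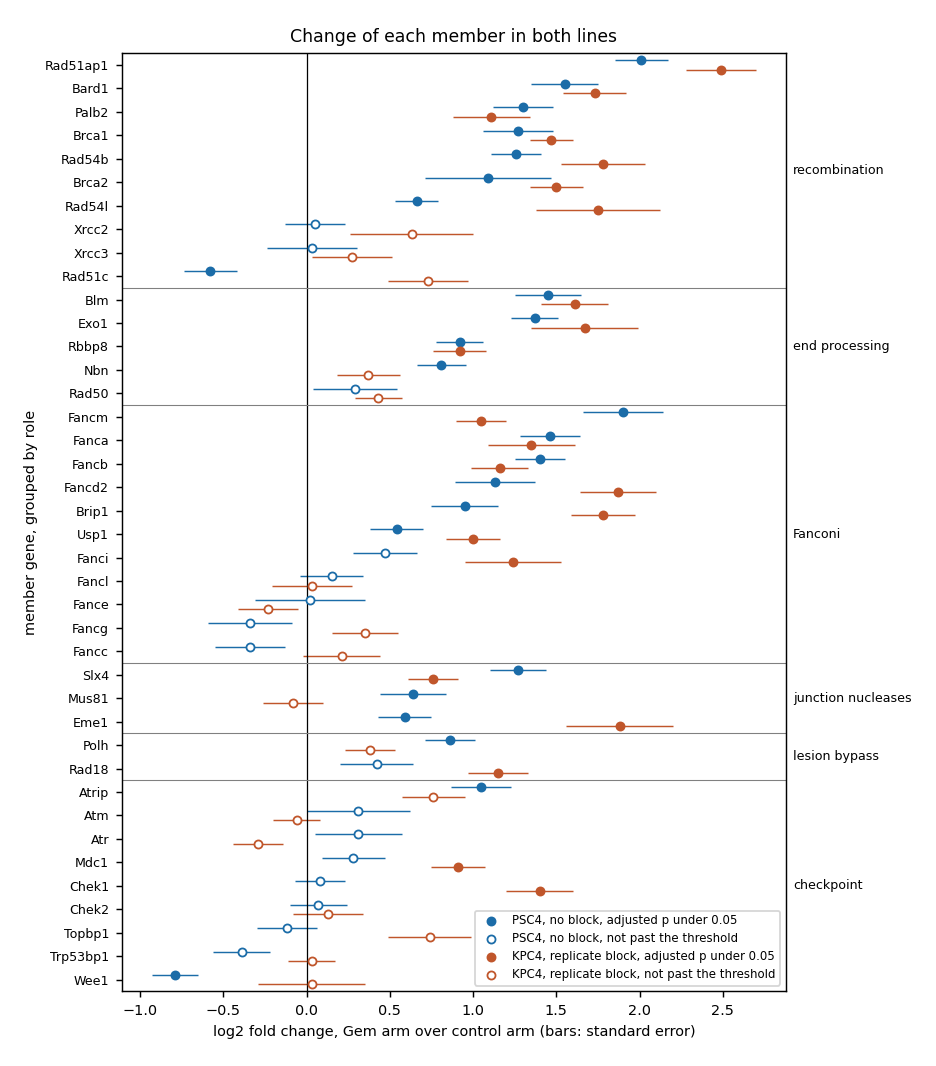
Points give the log2 fold change of the Gem arm over the control arm for each member in PSC4 and in KPC4 with the replicate block, bars the standard error, and filled points an adjusted p under 0.05. Most recombination and Fanconi genes lie to the right of 0 in both lines, Rad51c (-0.58) and Wee1 (-0.79) lie to the left in PSC4, and Chek1 lies near 0 in PSC4 (0.08) and at 1.40 in KPC4.

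Other genes of the same pathways, 87 in all, were counted in the same way. In PSC4 57 of them were called, 45 higher and 12 lower, with a median log2 fold change of 0.53, and in KPC4 0 without the block and 32 with it, 31 of them higher. The unadjusted p was under 0.05 for 40 of them in KPC4 without the block, and DESeq2 called 21. Their called share was 65.5% in PSC4, beside 46.3% of all genes, and 36.8% in KPC4 with the block, beside 8.85%. By list, other recombination genes had 19 higher and 5 lower of 34 in PSC4, other Fanconi and crosslink genes 7 and 3 of 20, and other checkpoint genes 19 and 4 of 33. With the block the KPC4 counts were 13 higher and 1 lower, 3 higher and 0 lower, and 15 higher and 0 lower.

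The genes with the smallest p of the recombination list in PSC4 were Hrob, which helps to load a helicase during repair synthesis (log2 fold change 2.31), the helicase Helq (1.93) and Recql4 (1.91), and in KPC4 with the block Hrob (2.23), Zgrf1 (2.81) and Polq (2.31), the polymerase of an alternative end-joining route. Of the Fanconi and crosslink list, the bypass polymerases Polk (3.17) and Rev1 (1.79) and the nuclease Ercc4 (1.44) led in PSC4, and Dclre1b (0.99), Polk (0.98) and Faap24 (0.82) in KPC4. Of the checkpoint list, the single-strand binding protein Nabp1 (3.48), Clspn (2.16), which links Atr to Chek1, and the phosphatase Cdc25a (1.88) led in PSC4, and Ticrr (2.23), Atad5 (2.20) and Cdc25c (1.88) in KPC4. All of these passed at an adjusted p under 0.05 in the fit named.

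Repair pathways that do not use recombination were counted too. The called share in PSC4 was 33.3% for end joining and 43.8% for mismatch and excision repair, beside 46.3% of all genes, and no difference from the members was tested. In KPC4 with the block these shares were 0.00% and 12.5%, beside 8.85% of all genes. Polq, of the alternative end-joining route, was counted in the recombination list above and not here. Of 12 end-joining genes, 1 was higher and 3 were lower in PSC4, with Dclre1c (log2 fold change -1.01), Parp1 (0.51) and Nhej1 (-1.04) at the smallest p, and none passed in KPC4 with or without the block, where 1 and 3 had an unadjusted p under 0.05 without and with it and Xrcc5 (-0.49), Lig3 (-0.36) and Dclre1c (0.45) led with it. Of 32 mismatch and excision repair genes, 10 were higher and 4 lower in PSC4, led by Ercc5 (2.55), Neil3 (1.36) and Ercc8 (1.61), and 3 were higher and 1 lower in KPC4 with the block, led by Neil3 (1.96), Xrcc1 (0.74) and Apex1 (-0.61). Median log2 fold changes were -0.23 and 0.18 for these lists in PSC4, and -0.11 and 0.12 in KPC4 without the block.

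Genes of the cell cycle were also mostly higher. Of 46 replication genes, 31 were higher and 1 lower in PSC4 (median log2 fold change 0.81), led by Rrm2 (2.97), Ccne1 (2.60) and Orc1 (2.70), and 38 were higher in KPC4 with the block (median 1.16), led by Cdc45 (2.45), Mcm10 (2.46) and Dbf4 (1.77). Of 40 mitosis genes, 22 were higher and 2 lower in PSC4 (median 0.62), led by Incenp (1.81), Aurka (1.22) and Nuf2 (1.07), and 33 were higher in KPC4 with the block (median 1.65), led by Hmmr (2.36), Cenpe (2.20) and Aurka (2.34). Without the block none of them passed in KPC4, although the unadjusted p was under 0.05 for 38 and 37 of them and DESeq2 called 18 and 31. Called shares in KPC4 with the block were 82.6% for replication genes and 82.5% for mitosis genes. There 55.0% of the members and 8.85% of all genes were called. Among replication genes 69.6% were called in PSC4, beside 46.3% of all genes. The mitosis calls in PSC4, 22 higher and 2 lower of 40, equalled those of the 40 members. The members' rise is therefore not set apart from that of cell cycle genes. In RNA from whole cultures, more cells in a given cell cycle phase and more transcript per cell cannot be told apart, and the part of cell cycle genes in the members' change was not tested.

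Regulators of these programmes were also counted. Of 19 E2F and DREAM complex genes tested, 9 were higher and 2 lower in PSC4, led by the E2F-family repressors E2f8 (1.99) and E2f7 (1.71) and by Lin52 (1.84), and 8 were higher in KPC4 with the block, led by Lin9 (1.73), E2f8 (1.39) and Mybl2 (1.68). Of 16 genes of the p53 response, 15 were higher in PSC4 with a median of 2.41, led by Gtse1 (3.96), Mdm2 (5.50), the ligase that degrades p53, and Plk2 (3.73). With the block 6 were higher in KPC4 with a median of 0.74, led by Gtse1 (2.31), Mdm2 (1.12) and Btg2 (2.29). Without the block neither list had a call in KPC4, with 7 and 9 genes at an unadjusted p under 0.05 and 6 and 7 called by DESeq2. The called shares of the 2 lists were 57.9% and 93.8% in PSC4, beside 46.3% of all genes. In KPC4 with the block they were 42.1% and 37.5%, beside 8.85%.

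Library by library, the member medians lay near those of the mitosis genes in PSC4. In KPC4 they ran in the same order within each group as those of both cell cycle lists. The median log2 ratio of the members to the control mean was -0.38, 0.41 and -0.27 in the Control-PSC-SU libraries and 0.67, 1.19 and 0.77 in the Gem-PSC-SU libraries. For the mitosis genes it was -0.81, 0.74 and -0.39, and 1.23, 1.99 and 1.36, so that replicate 2 was the highest of its group for both lists. For the replication genes it was -0.65, 0.63 and -0.35, and 0.44, 1.59 and 1.09. There Gem-PSC-SU replicate 1 lay below the control replicate 2, unlike for the members. In PSC4 the members were at -0.15, 0.08 and 0.10, and 0.55, 0.64 and 0.67, with every Gem-SU library above every control. The mitosis genes were at -0.18, 0.12 and 0.06, and 0.54, 0.62 and 0.65. The replication genes were at 0.06, 0.00 and -0.06, and 0.86, 0.81 and 0.80. The recombination genes alone were at 0.75, 1.22 and 1.38 in the Gem-SU libraries, replicate 1 being the lowest.

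**Figure D4:**
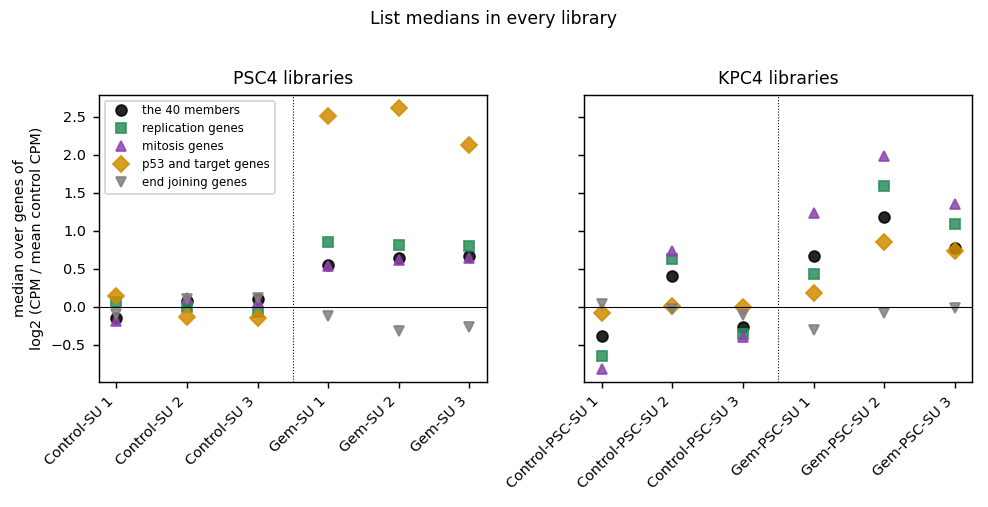
Each point is the median over the genes of a list of the log2 ratio of CPM to the control mean of the line, for the members and 4 further lists, in each of the 6 libraries of PSC4 and of KPC4. In KPC4 the control replicate 2 lies above the other controls for the members (0.41) and the mitosis genes (0.74), and in PSC4 the p53 genes lie highest in all Gem-SU libraries.

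In the authors' deposited table for PSC4, 23 of the 40 members had an adjusted p under 0.05, 21 higher and 2 lower, where 42.2% of its 15371 genes did. All 23 were also called from the counts here. In the authors' deposited table for KPC4, 12 members were called, all higher, where 4.91% of its genes were, and 11 of these were also called from the counts with the block. The exception with the block was Xrcc3, with a log2 fold change of 1.14 in the authors' deposited table and 0.28 from the counts without the block.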

How the data were processed

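RNA-seq libraries of 12 cultures were analysed, 3 per group, grouped by their titles. The authors deposited raw counts per gene for each line as whole numbers. The submitters' processing notes name Trim Galore 0.6.10, cutadapt 5.2, Salmon, R 4.5.1, DESeq2 and build GRCm39 without their order, so that the counts may be rounded Salmon estimates; the annotation and any use of strand are not given in the sources used here, and reads of near-identical or antisense genes may be split between them. The authors also deposited DESeq2 tables that give each gene's log2 fold change and p-value, raw and adjusted, quoted only as theirs. Symbols from GENCODE M21 matched 16329 of 16386 PSC4 and 15265 of 15309 KPC4 identifiers.

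The counts were tested per line with edgeR 4.0.16 (R 4.3.3; filterByExpr, TMM, robust glmQLFit, glmQLFTest) and Benjamini-Hochberg adjustment over all genes at 0.05. CPM are counts scaled to the TMM-adjusted library total. At 3 against 3 libraries an exact permutation test cannot go below 0.1, so p-values come from the fits across all genes. Counts of at least 86 per member and library leave replicate spread, not counting error, as the limit. For KPC4 the fit without the block was the main one, and the fit with replicate number as a block was planned beside it. All 3 KPC4 correlations exceeded 0.1, but the labels do not say what the number stands for. Alternatives were DESeq2 1.42.0, its size factors, other count filters, robust estimation off, the replicate block, a fit over 12 libraries and leaving out each library; the block with DESeq2, with the fit over 12 libraries and with left-out libraries was added after seeing the data. The edgeR fits were also run on simulated counts with known changes, whose outcome is not given here. Effects shared by a replicate number were simulated only where the block was fitted. Paired counts fitted without the block were therefore not simulated.

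Members and lists were chosen with earlier results of these data known. Values in every library are given for the higher and the lower member with the smallest p of each role group in PSC4 and in KPC4 with the block, and for members with a called interaction without the block. Of other lists the 3 genes with the smallest p per line are named, in KPC4 from the blocked fit. Members in the plot of CPM that fall outside this rule (Brca1 and Fancd2) were picked after their values were seen.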

Additional observations from a re-analysis of the deposited data

Results flagged for a closer look

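The response of a few members differed between the lines by the test of the difference itself, the PSC4 change minus the KPC4 change on the log2 scale. Without a block this held for Rad51c, at -1.34 (edgeR adjusted p = 0.0132), which was lower with Gem-SU in all 3 PSC4 libraries and higher with Gem-PSC-SU in all 3 KPC4 libraries. With replicate number as a block it held for Chek1 at -1.38 (edgeR adjusted p = 0.00296), for Rad51c at -1.35 (adjusted p = 0.00718), for Brip1 at -0.88 (adjusted p = 0.0273), for Eme1 at -1.34 (adjusted p = 0.0294), for Fancm at 0.77 (adjusted p = 0.0361) and for Mdc1 at -0.70 (adjusted p = 0.0438). Without the block Chek1, Brip1, Eme1, Fancm and Mdc1 had edgeR adjusted p-values from 0.0560 for Chek1 to 0.466 for Brip1. Called members made up 15.0% of the list with the block, against 21.9% of all genes.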

How the results depend on the processing

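With 3 libraries per group the spread between replicates, not depth, limits these results, and PSC4 and KPC4 differ in line, medium and exposure at once. In PSC4 the count of 24 called members was 27 with the replicate block (54.4% of all genes called), 24 with DESeq2 and 19 in the fit over 12 libraries, and 19 to 27 with a library left out, and the median log2 fold change lay between 0.55 and 0.69. PSC4 replicate numbers did not pair the libraries (correlations 0.428, -0.0548 and 0.102). Of the Control-SU libraries, only replicate 1 correlated best with the Gem-SU library of its own number. In KPC4 the count of 0 stayed 0 with DESeq2's size factors, both other filters and robust estimation off, and became 22 with the replicate block, 14 with DESeq2, 24 with DESeq2 and the block, 12 in the fit over 12 libraries and 25 in that fit with the block. Leaving out a library gave 0 to 16 in KPC4. With a library left out and the block kept, the count was 21 without Control-PSC-SU replicate 1, 23 without its replicate 2 and 1 without its replicate 3, and 21, 24 and 2 without Gem-PSC-SU replicates 1, 2 and 3, while the KPC4 median stayed between 0.66 and 1.18. With the block kept, leaving out either library of a number takes the whole pair out of the comparison. The interaction count of 1 became 6 with the replicate block, 2 with at least 10 counts in every library, 2 with DESeq2, 10 with DESeq2 and the block, 1 to 7 with a library left out (7 without Control-PSC-SU replicate 2) and 2 to 14 with a library left out and the block kept (2, 3 or 4 for most, 14 without Control-PSC-SU or Gem-PSC-SU replicate 2). The cause of these moves was not tested. Counts given without a share of all genes called in the same fit are not shown to be particular to the members. Among the members named with all library values, 3 uncalled changes turned sign. Fance in PSC4 went from 0.02 to -0.03 in the fit over 12 libraries, -0.01 in that fit with the block, and -0.27 and -0.23 without Control-SU replicate 2 or Gem-SU replicate 1, the range being -0.27 to 0.24. Mus81 in KPC4 went from -0.08 to 0.02 and 0.00 without Control-PSC-SU replicate 3 or Gem-PSC-SU replicate 1, within a range of -0.17 to 0.02. Wee1 in KPC4 went from 0.10 to -0.02 and -0.33 without Control-PSC-SU replicate 1 or Gem-PSC-SU replicate 1, within a range of -0.33 to 0.32.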
